A study of Mus musculus with 6 samples.

Results

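The genes that load and run the DNA replication fork were read in mouse hepatoma cells of the Hepa 1–6 line after treatment with Shh or vehicle. Sonic hedgehog (Shh) is a secreted ligand of the Hedgehog pathway. The members are 43 genes chosen by name for origin recognition, licensing, helicase, primase, clamp, polymerase and nucleotide-supply functions, out of 18169 genes in the deposited table. All 43 were found by symbol, and all 43 passed the filter on low counts, so no member was left out of the test. Poly(A) RNA was sequenced from 3 vehicle and 3 Shh libraries, and the comparison asks whether Shh moved these messenger RNAs. The sources used here give neither a dose nor a duration of Shh for these libraries, and all 6 are of 1 cell line with no genetic change named. No label states that the 3 libraries in each group were grown as independent cultures. The p-values therefore measure no more than the spread among these libraries, which may be technical.

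Replication begins when the origin recognition complex (ORC) and CDC6, with CDT1, load the ring-shaped MCM2-7 helicase onto DNA, and geminin, encoded by *Gmnn*, holds CDT1 back so that an origin is licensed once in a cycle. CDC45 and the GINS complex then join MCM2-7 as the active helicase, polymerase alpha with primase lays the primer, and replication factor C (RFC) places the PCNA clamp that tethers polymerases delta and epsilon. Most hepatocytes of an adult liver are quiescent, whereas Hepa 1–6 cells divide in culture. Many of these genes are known targets of the E2F transcription factors, which act at the start of S phase.

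The promoters of the members held E2F-type letters. Promoter sequences from RefSeq (build GRCm38.p6, 250 bases before to 50 bases after each start) were matched by gene ID and symbol for 35 of the 43 members, with 43 windows in all. Each window was searched on both strands for the letters TTCCCGC, or else TTCGCGC, or else TTGCCGC, or else TTGGCGC, the spellings of an E2F core, whose matches can overlap each other. At least 1 match was in 24 of the 35 members (68.6%), in 19.2% of the 9831 tested genes with a window and in 10.9% of all 27025 genes of the promoter table. By window, 60.5% of the member windows, 16.2% of the windows of tested genes and 9.57% of all windows held one. CCAAT, which can overlap an E2F core, was in 23 of the 35 members (65.7%), in 43.8% of the tested genes and in 41.1% of all genes. GACCACCCA, the site of the Hedgehog transcription factors of the Gli family, was in 0 of the 35 members and in 0.289% of all genes, which says only that these letters are not in these windows. A match is a description of letters and not of binding, which was not measured here. The windows below are read along the gene's strand, with 1 E2F match each in capitals, and show the letters shared by genes of origin recognition, licensing, helicase and clamp loading.
Orc1, chr4:108579417-108579444, plus strand: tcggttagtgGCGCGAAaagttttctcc
Cdc6, chr11:98908003-98908030, plus strand: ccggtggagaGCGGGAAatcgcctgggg
Mcm3, chr1:20820276-20820303, minus strand: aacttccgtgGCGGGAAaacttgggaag
Mcm5, chr8:75109347-75109374, plus strand: gccaagaactTTCGCGCcaaaacgtcca
Mcm6, chr1:128359734-128359761, minus strand: ttggacgggtTTGGCGCgaagtagctca
Mcm7, chr5:138171849-138171876, minus strand: gtgacgacgtTTCGCGCcaatttcggtt
Rfc3, chr5:151651200-151651227, minus strand: gtcgcacgctTTCGCGCtcgcgggaaaa
Further matches in the windows of *Mcm5*, *Mcm6*, *Mcm7* and *Rfc3*, some of them overlapping, are not in capitals. *Mcm6* had the most matches of the members, 5 in its single window, while the windows of *Mcm2* and *Pcna* had 0.

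The libraries held 20253781 to 20335463 counts. Shh replicate 2 stood apart. Per degree of freedom, its chi-square distance to the other libraries was 6.40 to 12.2, against 1.72 to 2.35 between vehicle libraries. To vehicle, it was 2.22 to 2.71 for Shh replicate 1 and 2.86 to 4.95 for Shh replicate 3, so Shh replicate 3 also lay outside the range of vehicle pairs. Values without Shh replicate 2 stand beside several, but not all, of the differences that are described in detail. Hepatoma markers were present, with *Alb* at a mean of 1004 CPM (counts scaled to library size with TMM factors) and *Afp* at 394.9 CPM in vehicle, although *Ttr*, another hepatocyte marker, was at 0.349 CPM. The summed level of 9 hepatocyte and hepatoma markers was 5636 to 5695 CPM in vehicle and 5313 to 5634 CPM in Shh libraries. The keratin genes *Krt18* (mean of 2260 CPM in vehicle) and *Krt8* (1186 CPM) made the largest parts of this sum. *Apoa1*, of the same list, was at 3.23 CPM in vehicle. Endothelial markers summed to 1.14 to 2.34 CPM in vehicle and 1.23 to 2.72 CPM with Shh, and stellate markers to 10.9 to 17.9 and 9.68 to 26.1 CPM. The 4 macrophage markers found summed to 17.1 to 17.4 and 14.1 to 20.8 CPM, led by *Cd68*. The highest Shh sum of each of these lists was in Shh replicate 1. There *Col1a1*, a stellate marker, was at 21.8 CPM, against 8.19 and 7.41 CPM in Shh replicates 2 and 3. In vehicle replicates 1, 2 and 3 *Col1a1* was at 7.98, 15.8 and 11.1 CPM. Cholangiocyte markers summed to 238.0 to 245.6 and 237.3 to 247.0 CPM. Most of this sum was *Krt7* (mean of 153.5 CPM in vehicle) and *Sox9* (72.8 CPM), whereas *Krt19* and *Epcam* were at 6.70 and 8.89 CPM in vehicle. At least 1 library had counts for each of these markers, although *Lrat*, a stellate marker, had at most 1.06 counts in any library. The part of these markers in the results was not tested. Of the Hedgehog target genes, *Gli1* was at 2.14 to 2.5 CPM in vehicle and 2.16 to 2.70 CPM with Shh, and *Ptch1* at 31.4 to 36.4 and 33.8 to 36.9 CPM, so both groups overlapped. *Hhip* had at most 3 counts in any library.

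The replication genes were well expressed, but the subunits of one complex differed widely in level. Levels between genes are given as TMM-normalized CPM per kilobase of transcript (CPM/kb), using the length behind the deposited FPKM. In vehicle the median of the 43 members was 34.7 CPM/kb, against 11.2 CPM/kb over 11471 tested genes with a length, and 37 of the 43 were above that value. *Pcna*, the sliding clamp, had the highest level at 209.5 ± 1.18 CPM/kb (SD, n = 3), and *Pola1*, the catalytic subunit of polymerase alpha, the lowest at 3.46 ± 0.249 CPM/kb (SD, n = 3). Summed over the 43 genes, the members took 0.427 to 0.433% of the counts in vehicle libraries and 0.432 to 0.440% in Shh libraries.

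Within MCM2-7, whose subunits form one ring with 1 copy of each, the vehicle level of *Mcm7* (132.7 CPM/kb) was 5.52 times that of *Mcm4* (24.1 CPM/kb). *Mcm3*, *Mcm2* and *Mcm6* lay between, at 96.0, 92.8 and 83.5 CPM/kb, and *Mcm5* at 46.5 CPM/kb. The largest SD of these 6 genes in vehicle was 1.82 CPM/kb, for *Mcm7*, so each step in this order was larger than the spread between libraries. That spread does not cover errors between genes, such as in the length, which is itself an estimate. In MCM2-7, ORC and GINS, the deposited counts of *Mcm5*, *Orc1*, *Orc3*, *Orc4* and *Gins2* were not whole in any library, so their levels rest on reads divided between features. In ORC, *Orc6* led with 55.8 CPM/kb and *Orc1*, the ATPase subunit that is regulated in the cell cycle, was lowest at 5.33 CPM/kb, a 10.5-fold range. *Orc4*, *Orc5* and *Orc3* were at 13.5, 12.8 and 12.1 CPM/kb and the spreads of neighbours in this order overlapped (SD 0.850, 0.410 and 0.528 CPM/kb). *Orc2* stood between at 34.7 CPM/kb. In GINS the range was 14-fold, from *Gins2* at 59.5 to *Gins3* at 4.24 CPM/kb, with *Gins4* at 47.9 and *Gins1* at 35.0 CPM/kb.

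In the clamp loader, the 4 small subunits spanned *Rfc3* at 68.7, *Rfc2* at 63.6, *Rfc5* at 58.7 and *Rfc4* at 13.8 CPM/kb. The large subunit *Rfc1* was at 8.42 CPM/kb. The counts of *Rfc4* and *Rfc1*, and of *Pola2*, *Pold2*, *Fen1* and *Mcm10* below, were not whole in any library either. The primase subunits *Prim1* and *Prim2* were at 55.1 and 31.5 CPM/kb and the accessory subunit *Pola2* at 33.6 CPM/kb, all above *Pola1*. Of the polymerase delta subunits, the accessory *Pold2* (73.4 CPM/kb) was above the catalytic *Pold1* (22.9 CPM/kb) and the accessory *Pold3* (12.7 CPM/kb) below it. For polymerase epsilon, the catalytic *Pole* at 5.42 ± 0.153 and its partner *Pole2* at 6.29 ± 0.428 CPM/kb (SD, n = 3) were both low. Of the single-strand binding proteins, *Rpa1* was at 109.4, *Rpa3* at 34.6 and *Rpa2* at 19.8 CPM/kb. *Fen1*, the flap endonuclease of Okazaki fragments, was at 49.7 CPM/kb and *Lig1*, the ligase that seals them, at 23.3 CPM/kb. *Mcm10* and *Cdc45*, which act in helicase activation, were at 13.5 and 13.9 CPM/kb.

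**Figure D1:**
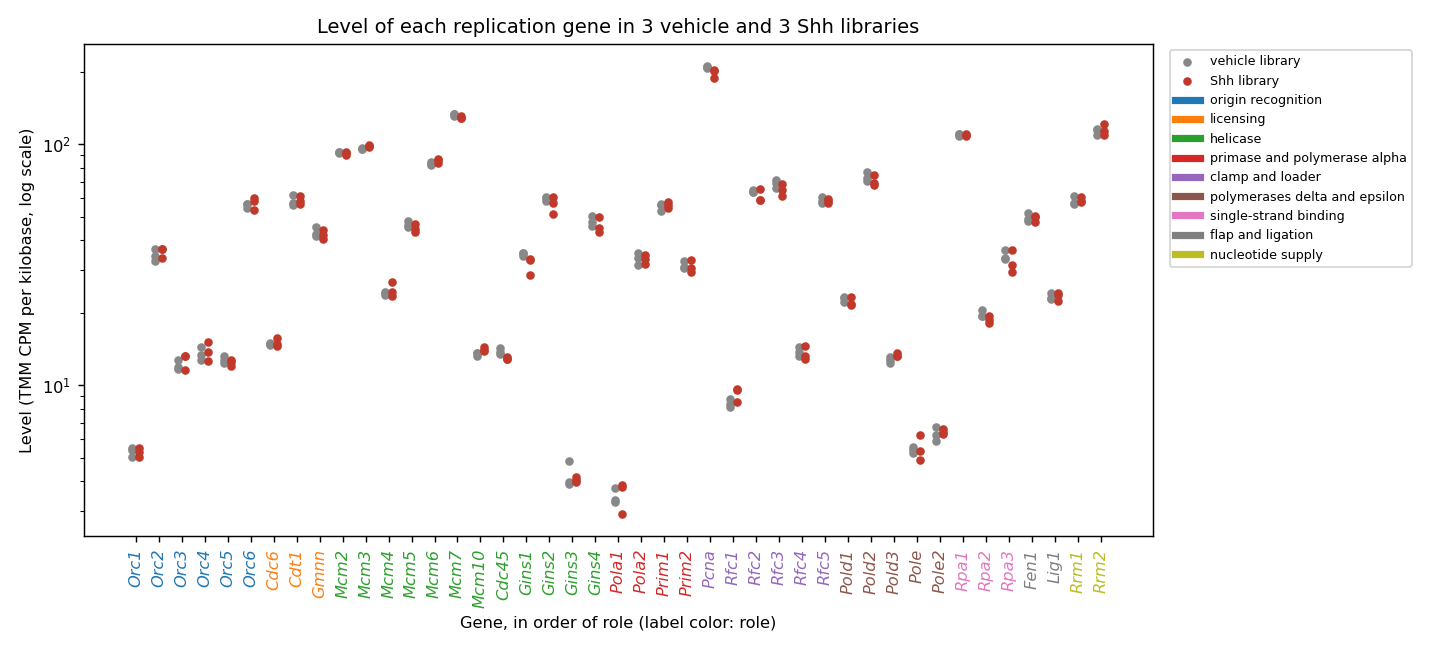
Level of each of the 43 genes (vertical axis, TMM-normalized CPM per kilobase, log scale) by gene in order of role (horizontal axis), with 1 point per library, vehicle in gray and Shh in red. *Pcna* is highest and *Pola1* lowest, and for most genes the gray and red points lie close together beside the distance between genes.

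With Shh, no replication gene was called higher or lower. At an adjusted p under 0.05 the count was 0 of 43 by edgeR's quasi-likelihood test and 0 by DESeq2, as it was 0 (0%) of all 12286 genes by either tool. At an unadjusted p under 0.05, 2 of 43 (4.65%) differed in edgeR and 0 in DESeq2, against 10.4% of all genes in edgeR and 6.63% in DESeq2. These were *Rfc1* on the higher side, where 4.83% of all genes lay, and *Gins1* on the lower side, where 5.56% lay. The smallest adjusted p among the members was 0.477. The log2 fold changes of the members ran from -0.14 to 0.13 with a median of -0.0088, beside a median of 0.0028 over all genes. Of the members, 19 were above 0 and 24 below, and of all genes 51.2% were above 0. For all 43 members the 95% interval of the fold change lay within 1.3-fold in both directions, which held for 77.6% of all genes and for 98.2% of the 8868 genes at or above the mean CPM of the lowest member. Changes in the share of cells in S phase and changes in RNA per cell cannot be told apart in bulk RNA.

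**Figure D2:**
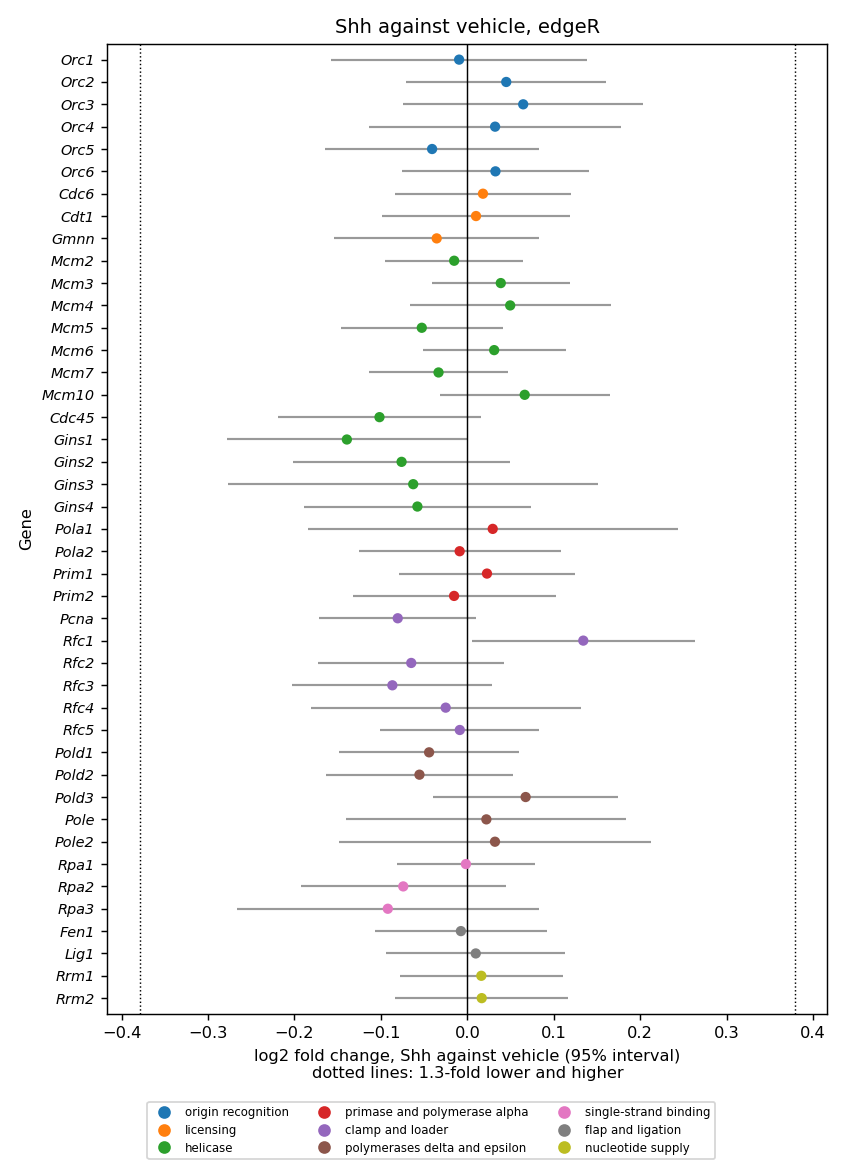
Log2 fold change of Shh against vehicle (horizontal axis, point) with its 95% interval (bar) for each gene (vertical axis), colored by role, with dotted lines at 1.3-fold lower and higher. Every bar lies between the dotted lines, and the bar of *Rfc1* and, barely, that of *Gins1* leave out 0.

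The ORC and licensing genes stood within a few percent of vehicle. Values per library are in the order of replicates 1, 2 and 3. *Orc1* was at 16.6, 15.5 and 17.0 CPM in vehicle and 15.5, 17.0 and 16.3 CPM with Shh. The groups of *Orc1* overlapped fully, with a log2 fold change of -0.0096 (95% interval -0.16 to 0.14). *Cdc6*, the ATPase that joins ORC for loading, was at 67.9, 68.2 and 67.5 CPM in vehicle and 72.1, 67.7 and 66.4 CPM with Shh. Only Shh replicate 1 was above the vehicle range, and the log2 fold change of *Cdc6* was 0.018 (95% interval -0.083 to 0.12). *Cdt1*, the loading partner of MCM2-7, was at 122.3, 132.1 and 119.4 CPM in vehicle and 124.3, 131.3 and 120.8 CPM with Shh, a log2 fold change of 0.0100 (95% interval -0.098 to 0.12). *Gmnn*, its inhibitor, was at 38.6, 39.6 and 42.2 CPM in vehicle and 39.1, 37.6 and 40.9 CPM with Shh, a log2 fold change of -0.036 (95% interval -0.15 to 0.083). For both genes every Shh library except Shh replicate 2 of *Gmnn* lay within the vehicle range. The other 5 ORC genes had log2 fold changes from -0.041 to 0.065.

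The ratio of *Cdt1* to *Gmnn* counts, the licensing factor over its inhibitor, was 3.14, 3.31 and 2.81 in vehicle replicates 1, 2 and 3 and 3.15, 3.46 and 2.93 in Shh replicates 1, 2 and 3. On the log2 scale the groups differed by 0.045, less than the SD of 0.12 in either group (two-sided exact permutation test p = 0.7, adjusted p = 0.9 over 3 ratios). With 3 libraries against 3, that test cannot give a p below 0.1.

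The 6 genes of the MCM2-7 ring gave 3 above 0 and 3 below. *Mcm2* was at 309.9, 306.3 and 308.7 CPM in vehicle and 309.3, 301.1 and 304.8 CPM with Shh, and *Mcm7* at 317.1, 309.5 and 316.8 CPM in vehicle and 306.1, 311.9 and 303.7 CPM with Shh. Both groups overlapped for each gene, and their log2 fold changes were -0.015 and -0.033. *Mcm3* was at 281.3, 277.5 and 276.8 CPM in vehicle and 288.9, 286.7 and 282.6 CPM with Shh. Every Shh library of *Mcm3* was above every vehicle library, by a log2 fold change of 0.039 (95% interval -0.041 to 0.12, adjusted p = 0.713 from edgeR). *Mcm4* was at 86.1, 85.3 and 84.0 CPM in vehicle and 83.0, 95.4 and 86.0 CPM with Shh, where Shh replicate 2 alone was high, and its log2 fold change went from 0.050 to -0.012 without that library. *Mcm5* was at 162.7, 156.7 and 153.5 CPM in vehicle and 157.9, 151.0 and 147.1 CPM with Shh, with overlap (log2 fold change -0.053), and *Mcm6* at 242.0, 244.3 and 249.0 CPM in vehicle and 244.6, 252.4 and 254.3 CPM with Shh (log2 fold change 0.031). The median of the 6 was 0.0078.

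The other helicase genes were more often on the lower side. The 4 GINS genes were below 0 with all libraries (median log2 fold change -0.069). Their median was -0.038 without Shh replicate 2, and with an offset for transcript length it was -0.027 with 2 of the 4 above 0. *Gins1* was at 36.4, 36.3 and 35.3 CPM in vehicle and 34.5, 29.5 and 34.2 CPM with Shh, from 612 to 729.7 counts per library. Each Shh library of *Gins1* was below each vehicle library, and Shh replicate 2 was far below the other Shh libraries. Its log2 fold change was -0.14 (95% interval -0.28 to -0.00033, adjusted p = 0.479 from edgeR), and -0.070 without Shh replicate 2. *Gins2* was at 57.7, 58.9 and 59.8 CPM in vehicle and 59.7, 51.0 and 56.7 CPM with Shh, again lowest in Shh replicate 2, with a log2 fold change of -0.076 that was -0.016 without that library. *Cdc45*, the helicase cofactor, was at 28.3, 28.7 and 29.9 CPM in vehicle and 27.3, 26.8 and 26.9 CPM with Shh. The groups of *Cdc45* did not overlap, its log2 fold change was -0.10 (95% interval -0.22 to 0.016, adjusted p = 0.512 from edgeR), and it was -0.097 without Shh replicate 2. *Mcm10* was at 47.2, 46.0 and 47.3 CPM in vehicle and 50.1, 48.8 and 48.2 CPM with Shh, higher in each Shh library by a log2 fold change of 0.066 (95% interval -0.032 to 0.16, adjusted p = 0.599 from edgeR).

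Clamp and clamp loader genes lay on both sides, with the large loader subunit above 0 and the others below. *Pcna* was at 254.0, 252.1 and 254.9 CPM in vehicle and 247.1, 227.9 and 244.7 CPM with Shh, from 4730 to 5153 counts per library. Every Shh library of *Pcna* was below every vehicle library, and Shh replicate 2 was the lowest. The log2 fold change of *Pcna* was -0.081 (95% interval -0.17 to 0.010, adjusted p = 0.504 from edgeR), and -0.045 without Shh replicate 2. *Rfc1* was at 39.5, 38.3 and 41.4 CPM in vehicle and 40.1, 45.4 and 45.3 CPM with Shh. Shh replicate 1 of *Rfc1* lay inside the vehicle range and the other Shh libraries above it. Its log2 fold change was 0.13 (standard error 0.059, 95% interval 0.0051 to 0.26, adjusted p = 0.477 from edgeR), and 0.10 without Shh replicate 2. The deposited counts of *Rfc1* were not whole in any library, as for 11 of the 43 members, so reads had been divided between features by a counting tool that is not given in the sources used here. *Rfc3* was at 80.4, 76.4 and 83.1 CPM in vehicle and 79.8, 71.2 and 75.0 CPM with Shh, and *Rfc2* at 93.1, 94.6 and 92.8 CPM in vehicle and 95.7, 86.3 and 86.1 CPM with Shh. The groups overlapped for both because of Shh replicate 1, and their log2 fold changes were -0.087 and -0.065, or -0.048 and -0.041 without Shh replicate 2.

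Polymerase, primase, single-strand binding, flap and ligation genes were within a log2 fold change of 0.1 in either direction. *Pold3*, an accessory subunit of polymerase delta, was at 37.1, 38.4 and 39.4 CPM in vehicle and 39.8, 40.9 and 39.6 CPM with Shh, just above the vehicle range in each Shh library (log2 fold change 0.067, adjusted p = 0.624 from edgeR). *Rpa2*, the middle subunit of RPA, was at 33.6, 35.6 and 33.5 CPM in vehicle and 32.3, 31.5 and 33.8 CPM with Shh, with overlap through Shh replicate 3 (log2 fold change -0.074). The 4 genes of polymerase alpha and primase ranged from -0.015 to 0.029, the 5 of polymerases delta and epsilon from -0.055 to 0.067 and the 3 RPA genes from -0.092 to -0.0017. The lowest RPA gene, *Rpa3*, was at -0.028 without Shh replicate 2. *Fen1* and *Lig1* were at -0.0075 and 0.0097. The ratio of *Prim1* to *Prim2* was 1.41, 1.31 and 1.33 in vehicle and 1.29, 1.41 and 1.45 with Shh, which overlapped (log2 difference 0.039, two-sided exact permutation test p = 0.6, adjusted p = 0.9 over 3 ratios).

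For nucleotide supply, ribonucleotide reductase makes the deoxynucleotides from a large subunit, *Rrm1*, and a small subunit that is limiting in S phase, *Rrm2*. *Rrm1* was at 222.5, 225.9 and 240.4 CPM in vehicle and 230.6, 226.6 and 239.4 CPM with Shh. *Rrm2* was at 233.4, 244.3 and 247.7 CPM in vehicle and 241.7, 258.4 and 233.7 CPM with Shh. The groups overlapped for both, with log2 fold changes of 0.016 and 0.017. Their ratio was 1.05, 1.08 and 1.03 in vehicle and 1.05, 1.14 and 0.976 with Shh (log2 difference -0.00084, two-sided exact permutation test p = 0.9, adjusted p = 0.9 over 3 ratios). The spread of this ratio was wider with Shh (SD 0.11 on the log2 scale) than in vehicle (SD 0.035). Each SD rests on 3 libraries, with Shh replicate 2 among those with Shh, and the difference in spread was not tested.

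Counted over all 43 members, the groups did not overlap for 6 genes, 3 with Shh above (*Mcm3*, *Mcm10* and *Pold3*) and 3 with Shh below (*Cdc45*, *Gins1* and *Pcna*). Of all genes, 6.79% had Shh above and 8.67% had Shh below, 15.5% in all. Shh replicate 2 held the highest or the lowest value of the 6 libraries for 26 of the 43 members (60.5%), and for 54% of all genes. The other libraries did so for 10 to 14 members each (23.3 to 32.6%), and for 25.6 to 32.4% of all genes.

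**Figure D3:**
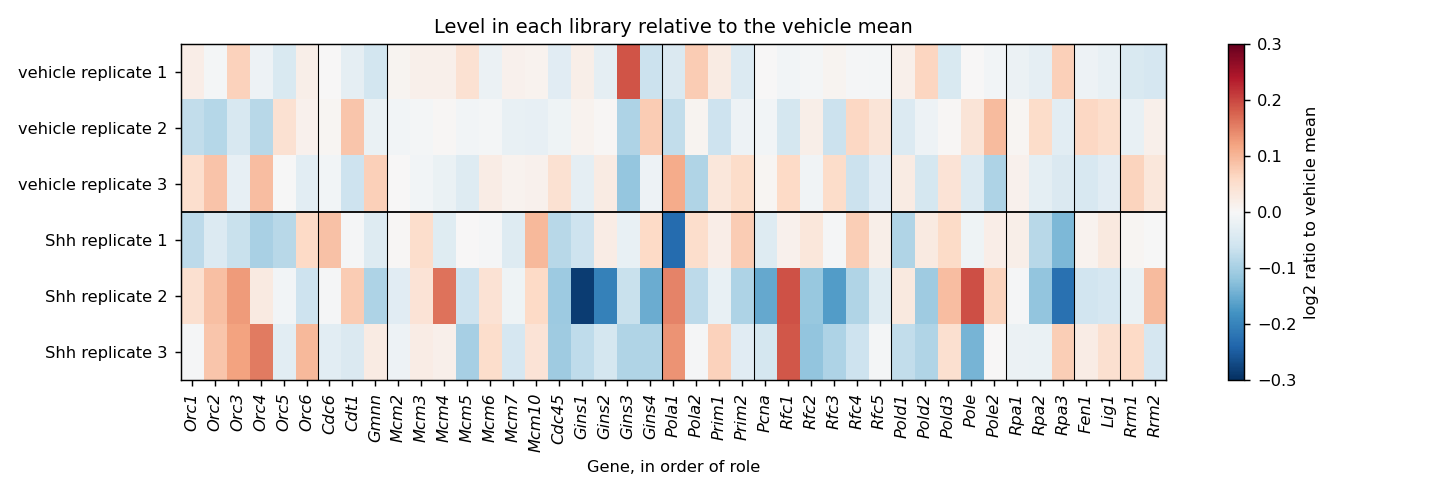
Level of each gene (horizontal axis, in order of role) in each library (vertical axis), as the log2 ratio to the vehicle mean (color, from -0.3 in blue to 0.3 in red). In Shh replicate 2, *Gins1*, *Rpa3* and *Gins2* are low and *Rfc1* and *Pole* high, and *Pola1* is low in Shh replicate 1.

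The small differences among the members went with transcript length. Over the 43 members the log2 fold change and the length had a Spearman's rho of 0.63, and over 11471 genes of 0.54. Without Shh replicate 2 these were 0.24 and 0.33. These are correlations across genes measured in the same 6 libraries, and genes are not independent replicates. The 22 shorter members (589.0 to 2362 bases) had a median log2 fold change of -0.048, with 5 above 0, and of -0.025 with 7 above 0 without Shh replicate 2. The 21 longer members (2367 to 7080 bases) had a median of 0.022, with 14 above 0, and of 0.024 with 12 above 0 without that library. As log2 ratios to vehicle, the shorter members had medians of 0.0053, -0.093 and -0.047 in Shh replicates 1, 2 and 3, and the longer members 0.0020, 0.042 and 0.021. In the vehicle libraries the shorter members were between -0.021 and 0.012 and the longer between -0.0093 and 0.014. The split between short and long members was thus widest in Shh replicate 2 and near 0 in Shh replicate 1.

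*Gins1* (1028 bases), *Gins2* (989.0 bases), *Pcna* (1211 bases) and *Rpa3* (589.0 bases), which stood lowest in Shh replicate 2, are short transcripts, and *Rfc1* (4718 bases) and *Pole* (7080 bases) are long. With an offset for transcript length in each library, the log2 fold change was -0.059 for *Gins1*, 0.0069 for *Gins2*, -0.012 for *Pcna* and 0.081 for *Rfc1*, while *Cdc45* (2091 bases) stayed at -0.085. The shorter members then had a median of 0.0070 and the longer of -0.0061. The rho with length was then -0.22 for the members and 0.041 for all genes with a length. The offset was fitted to the length trend of these same libraries, so the weaker trend after it was built in. Such an offset would also remove any effect of Shh that follows length. With that offset 0 of 43 members were at an unadjusted p under 0.05, against 6.08% of all genes, and 0 passed the adjusted threshold (0.00872% of all genes). Without Shh replicate 2 the members again gave 0 at an unadjusted p under 0.05, against 6.2% of all genes, and 0 past the adjusted threshold (0.0241%). When Shh replicate 1 was left out, which was the Shh library closest to the vehicle libraries, 8 members were at an unadjusted p under 0.05 (21.1% of all genes), and the adjusted count was 0 (1.57% of all genes). These 8 were *Orc3*, *Gins1*, *Gins2*, *Gins4*, *Pcna*, *Rfc1*, *Rfc2* and *Rfc3*, of which *Rfc1* had the smallest adjusted p (0.0722 from edgeR).

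**Figure D4:**
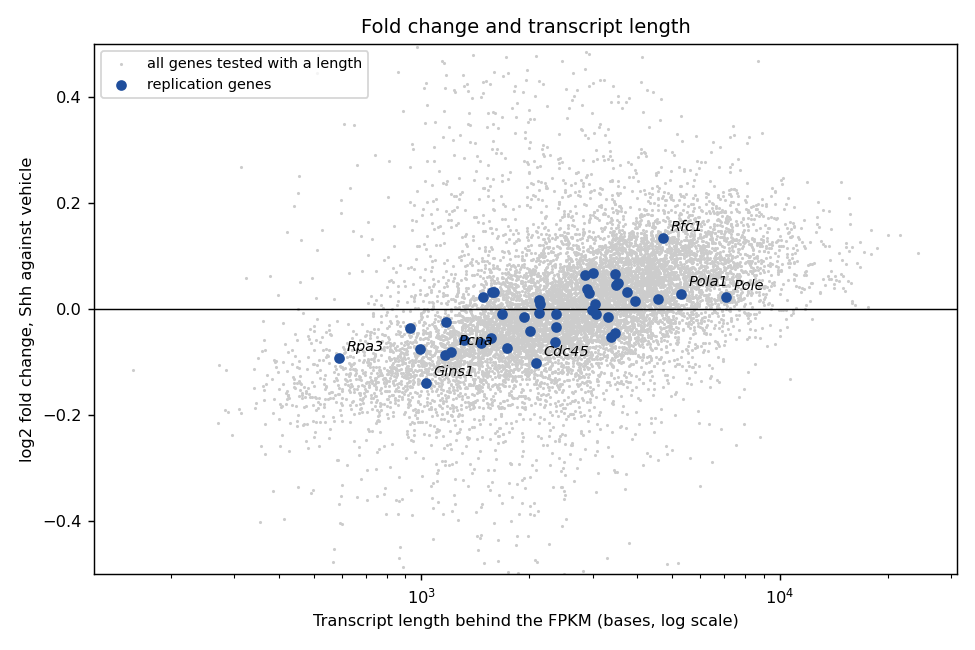
Length of the transcript (horizontal axis, bases on a log scale) and log2 fold change with Shh (vertical axis), with 1 gray point per tested gene that has a length and the 43 replication genes in blue. Short members such as *Rpa3* and *Gins1* lie below 0 and *Rfc1* above, along the slope of the gray points, and 140 genes lie outside the vertical axis.

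**Figure D5:**
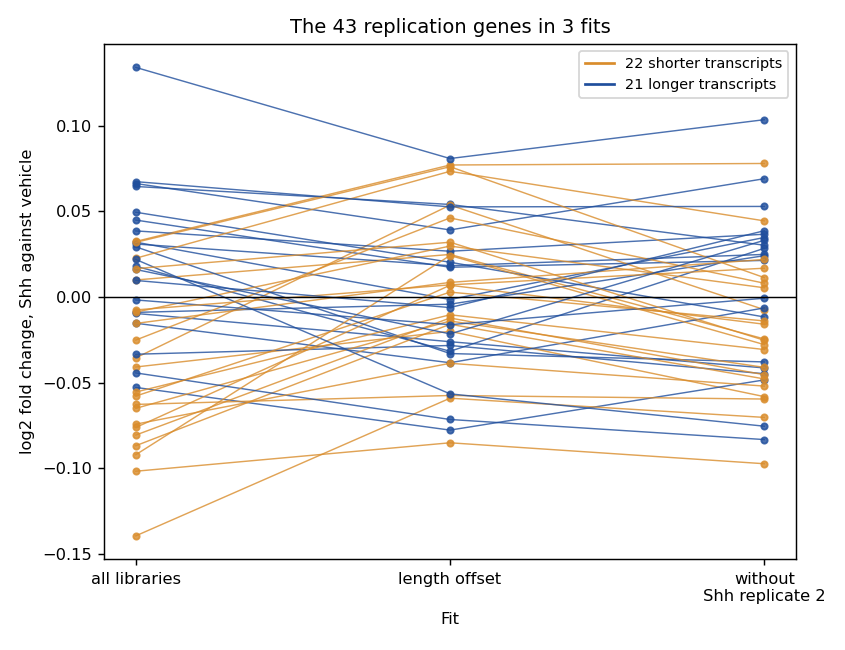
Log2 fold change of each replication gene (vertical axis) in 3 fits (horizontal axis), with all libraries, with the length offset and without Shh replicate 2, the 22 shorter members in orange and the 21 longer in blue. With all libraries 5 of the shorter and 14 of the longer members lie above 0, and with the length offset 13 and 8.

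Of 48 accessory genes of origin firing, fork protection, chromatin assembly and nucleotide synthesis, all were tested and 0 passed the adjusted threshold by edgeR or DESeq2. At an unadjusted p under 0.05, 4 were higher (against 4.83% of all genes) and 1 was lower (against 5.56%) in edgeR. Together these were 10.4% of the list, against 10.4% of all genes. DESeq2 gave 4 in all, against 6.63% of all genes. The median log2 fold change of the 48 accessory genes was 0.0070, with 26 above 0 and 22 below. The maintenance DNA methyltransferase gene *Dnmt1* was at 154.6, 159.3 and 162.1 CPM in vehicle and 168.5, 171.8 and 168.9 CPM with Shh, a log2 fold change of 0.097 (adjusted p = 0.469 from edgeR), with each Shh library above vehicle, and of 0.037 with the length offset. The topoisomerase gene *Top1* was at 0.12, the fork checkpoint mediator gene *Clspn* at 0.13 and the dUTPase gene *Dut* at -0.13. These became 0.086, 0.073 and -0.12 with the length offset, so *Dut* moved least, although it was at -0.070 without Shh replicate 2. Without Shh replicate 1, *Top2a*, the topoisomerase gene of mitotic chromosomes, passed (log2 fold change 0.20, adjusted p = 0.0481 from edgeR). It was chosen after its values were seen. With all libraries it was at 0.13, at 0.067 with the length offset and at 0.069 without Shh replicate 2.

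Mitotic genes, which follow the share of dividing cells, gave 10 of 20 above 0 and 10 below, with a median of 0.012. Both edgeR and DESeq2 put 0 of the 20 past the adjusted threshold and 1 at an unadjusted p under 0.05, against 10.4% and 6.63% of all genes. With the length offset 3 were at the unadjusted p (6.08% of all genes), *Ttk* on the higher side and *Cdk1* and *Bub1b*, named after their values were seen, on the lower. In edgeR with all libraries the gene was the spindle checkpoint kinase gene *Ttk*, at 20.5, 21 and 22.5 CPM in vehicle and 22.2, 25.6 and 25.7 CPM with Shh (log2 fold change 0.20, adjusted p = 0.469 from edgeR). The groups of *Ttk* overlapped through Shh replicate 1. The cyclin gene *Ccna2* was at 0.079, with each Shh library above vehicle, and the spindle motor gene *Kif11* at 0.097, which was 0.042 with the length offset and 0.044 without Shh replicate 2.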

How the data were processed

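Estimated counts per gene and FPKM values were deposited by the authors for 3 vehicle and 3 Shh libraries of Hepa 1–6 cells, read by poly(A) RNA sequencing. Columns headed as control were taken as vehicle, by number. Fractional counts made up 36.4% of the values above 0. The submitters' notes on processing list Bowtie2. No source used here names the counting tool, genome build or annotation. There were 6 more columns of per-sample values, in another unit, that were not used. Liver exosomes are mentioned in the series' design text, but the sample labels, which name the cell line, were followed.

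Rounded counts of all genes were fitted in R 4.3.3 with edgeR 4.0.16 (TMM, minimum count 10, minimum total 15, quasi-likelihood test with no covariate), with Benjamini-Hochberg adjustment at 0.05, which also gave standard errors and 95% intervals. Transcript length was recovered from counts and FPKM where FPKM was at least 0.5, and the length offset removed a spline of 5 degrees of freedom on length in each library. Log2 ratios used a pseudocount of 0.5. Alternatives were DESeq2 1.42.0, upper-quartile factors in edgeR, either no filter or a minimum of 5 CPM in 3 libraries, a replicate block, the length offset, block and offset together, a pseudocount of 1 for ratios, and omission of each library. The length offset without Shh replicate 2, and the fold bound of 1.3, were chosen once the data had been examined. Tests planned for FPKM or TPM tables were unnecessary. The test was also run on simulated counts, with fold changes set larger than that of any member, and the outcome is not reported here.

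The members and gene lists were chosen with earlier results of these data known. Library values were given for the 10 members with the smallest p and for a fixed core of 13, with up to 4 accessory and 3 mitotic genes.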

Additional observations from a re-analysis of the deposited data

How the results depend on the processing

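The adjusted count was 0 of 43 members in each alternative run. At an unadjusted p under 0.05 there were 2 members (*Gins1* and *Rfc1*, 10.4% of all genes), against 0 with DESeq2 (6.63%) or the length offset (6.08%), 1 with the stricter filter (*Rfc1*, 12.5%), 1 with the replicate block and length offset (*Mcm5*, 7.35%) and 0 to 8 when single libraries were dropped. The 8 came without Shh replicate 1 (21.1%), 0 came without Shh replicate 2 (6.2%), without vehicle replicate 1 or without vehicle replicate 2 (4.89% each), 1 without vehicle replicate 3 (*Rfc1*, 8.33%) and 2 without Shh replicate 3 (*Gins1* and *Rpa3*, 9.33%). The length offset with Shh replicate 2 dropped gave 2 (*Orc6* and *Pold1*, 4.22%). Of all genes, the 0 called became 1 without a filter, 1 with the length offset, 5 with the replicate block and length offset, 2 with the length offset once Shh replicate 2 was dropped, and 0 to 195 when single libraries were dropped, the 195 without Shh replicate 1. Accessory genes gave 0 to 1 there. The members' median of -0.0088 became 0.0047 with the length offset once Shh replicate 2 was dropped. Libraries of equal number did not deviate together (their deviations correlated at -0.040, -0.054 and 0.098). With 3 libraries per group, these values show no pairing by number but cannot exclude one. The replicate block called 0 genes and put 2 members, *Gins1* and *Rfc1*, at the unadjusted p (11.1% of all genes). Of 433 single-gene values under alternatives, 399 kept their direction and 34 changed it, none past the threshold. With the length offset *Gins2* was at 0.0069, *Gmnn* at 0.054, *Cdc6* at -0.032, *Rrm1* at -0.021 and *Ptch1* at -0.048, and with the block too at 0.0068, 0.054, -0.032, -0.022 and -0.046. With the length offset and Shh replicate 2 dropped, *Gins2* was at 0.023, *Mcm4* at -0.029, *Cdt1* at -0.024, *Gmnn* at 0.034, *Rrm2* at -0.024, *Gli1* at -0.078 and *Ptch1* at -0.046. When single libraries were dropped, *Mcm4* ranged from -0.012 to 0.091, *Cdt1* from -0.024 to 0.054, *Gmnn* from -0.067 to 0.0040, *Orc1* from -0.046 to 0.024, *Cdc6* from -0.018 to 0.042, *Rrm1* from -0.0071 to 0.052, *Rrm2* from -0.025 to 0.048, *Gli1* from -0.060 to 0.10 and *Ptch1* from -0.033 to 0.073. The log2 ratio of *Cdt1* to *Gmnn* differed by -0.030 with the length offset and by -0.022 to 0.10 when single libraries were dropped, and that of *Rrm2* to *Rrm1* by 0.052 and by -0.059 to 0.054. The cause was not tested. With these counts, changes smaller than the intervals given for each gene were not detectable.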
